A study of Mus musculus with 6 samples.

Results

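A set of 8 genes that code for G-protein signalling modulators and for inhibitory G-protein alpha subunits was followed through nuclei of mouse subcutaneous white adipose tissue. They were picked by symbol from the gene table of the libraries: Gpsm1, Gpsm2 and Gpsm3, then Gnai1, Gnai2, Gnai3, Gnao1 and Gnaz, which makes 8 of 32285 genes, and all 8 were found. The tissue came from 2 groups of mice, 3 libraries each. Flox control mice were GPSM1f/f, with loxP sites around Gpsm1, and Treg knockout mice were GPSM1ΔTreg, a name that places the deletion in regulatory T cells (Treg cells). Every mouse was on a high-fat diet, which the sample labels give as 12 weeks and the protocol as 5 to 12 weeks from 7 weeks of age. Neither the Cre driver nor the deleted exons are named in the sources used here, and the same holds for sex and strain.

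Receptors that couple to inhibitory G proteins release a GTP-bound alpha subunit and a beta-gamma pair, and the alpha subunits of this class restrain adenylyl cyclase. In fat cells, where cyclic AMP drives lipolysis, such receptors are known for holding lipolysis back, and in leukocytes the same class carries chemokine signals. The Gpsm proteins have GoLoco motifs, which bind inhibitory alpha subunits in the GDP-bound state and act without a receptor. Gpsm1 (also called AGS3) and Gpsm2 (LGN) pair these motifs with tetratricopeptide repeats, and Gpsm2 links alpha subunits to the spindle in dividing cells. Gpsm3 is the short member of the family, known from blood cells.

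The libraries are counts of unique molecular identifiers (UMIs) per gene and nucleus from droplet-based single-nucleus RNA sequencing, and 56226 nuclei were kept. All 3 control libraries were deeper (40814518 to 48605464 UMIs in kept nuclei) than all 3 knockout libraries (33200406 to 35522426). Nuclei were clustered without the 8 genes and without 94 pathway genes, and clusters were named from marker lists, so that "like" stands for a name from markers alone. Classes with at least 20 nuclei in every library were compared: adipocyte-like, ASPC-like (adipose stem and progenitor cells), endothelial-like, mural-like, macrophage-like, monocyte-like, dendritic-like, T-cell-like, B-cell-like and NK-cell-like. A level is given in CPM, a gene's UMIs as a share of all UMIs of the same nuclei, scaled to 1e6, and levels are compared between classes, never between genes. The NK-cell-like class is mixed: at Leiden resolution 2, 1158 of its 1468 nuclei (78.9%) fell in T-cell-like clusters and 309 in an NK-cell-like one. In controls 1, 2 and 3 that NK-cell-like cluster took 87, 46 and 35 of the 156, 78 and 69 nuclei of the class. In knockouts 1, 2 and 3 it took 56, 55 and 30 of 622, 185 and 358, so the makeup of the class differed between the groups. B-cell-like nuclei made up 2.70 ± 2.09% of control and 23.3 ± 13.5% of knockout nuclei (SD, n = 3), and T-cell-like nuclei 1.15 ± 0.343% and 4.99 ± 2.40%. Of the 9 unnamed clusters, the one nearest to adipocytes held most of its nuclei in control 3, where unnamed clusters took 34.7% of nuclei against at most 11.0% in the other libraries.

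Gpsm1, the targeted gene (ENSMUSG00000026930; mm10 chromosome 2, 26315515 to 26348237, plus strand), stood lower in T-cell-like nuclei of knockouts on few UMIs, and was detected in all 6 libraries. In controls 1, 2 and 3 it stood at 26.9, 59.4 and 20.0 CPM, from 5, 6 and 5 UMIs. In knockouts 1, 2 and 3 it stood at 19.9, 13.3 and 18.3 CPM, from 25, 5 and 15 UMIs. The lowest control and the highest knockout library were nearly equal, and the means were 35.5 ± 21.1 and 17.2 ± 3.40 CPM (SD, n = 3; exact two-sided permutation p = 0.1, the smallest p that 3 against 3 libraries can give). At Leiden resolution 2, with classes by marker score, with at least 1000 detected genes per nucleus and with no removal of doublets, the groups overlapped (exact permutation p = 0.4, 0.4, 0.5 and 0.4). Without control 2 the difference shrank from -18.3 to -6.31 CPM. The count was too low for the edgeR fit in this class. Since 3′ tags outside the deleted exons would be made from a deleted allele as well, and those exons are not known here, these values do not check the genotype. Adipocyte markers summed to 528 to 980 CPM in the control and 341 to 480 CPM in the knockout T-cell-like nuclei. The 6 group 2 innate lymphoid markers (Gata3, Rora and others) summed to 880 to 1401 and 389 to 555 CPM. Of these 6, only 2 stood at least 2-fold above the other clusters in this class. The part of both marker sets in the Gpsm1 values was not tested.

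Nuclei with a UMI of Foxp3, the lineage factor of Treg cells, were too few to read the deletion from. Among T-cell-like nuclei, controls held 12 of them and knockouts 51. A Gpsm1 UMI was found in 1 of the 12 (8.33%, exact 95% interval 0.211 to 38.5%) and in 1 of the 51 (1.96%, 0.0496 to 10.4%). In the Foxp3-negative T-cell-like nuclei the shares were 15 of 308 (4.87%, 2.75 to 7.91%) and 41 of 1379 (2.97%, 2.14 to 4.01%). All of these intervals overlap, and they cover counting error only, since nuclei were pooled over the libraries of a group. Knockout 1 alone held 33 of the 51 and 694 of the 1379.

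Across classes Gpsm1 was highest in ASPC-like nuclei, at 111 ± 20.3 CPM (SD, n = 6 libraries). That was 1.88-fold above mural-like nuclei (59.3 ± 19.8 CPM), in 6 of 6 libraries and with no overlap of the ranges. NK-cell-like (37.6), endothelial-like (35.9), T-cell-like (26.3), B-cell-like (25.5), macrophage-like (20.1), and monocyte-like nuclei (17.7 CPM) followed, then dendritic-like nuclei (0 to 22.4 CPM over libraries), each overlapping with the next. Adipocyte-like nuclei were lowest at 10.9 ± 1.97 CPM. The 3 ASPC-like clusters were alike, at 107, 107 and 118 CPM over pooled libraries. By origin, ASPC-like nuclei gave 51.6 ± 12.4% of all Gpsm1 UMIs in controls and 53.8 ± 5.10% in knockouts, though they held 14.1 and 16.3% of all UMIs. The T-cell-like class gave 16 of 3793 control UMIs and 45 of 3755 knockout UMIs of Gpsm1.

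Gpsm2 (ENSMUSG00000027883; chromosome 3, 108678638 to 108722309, minus strand) was also highest in ASPC-like nuclei, at 38.4 ± 4.33 CPM, and stood out in some small clusters. T-cell-like nuclei came next at 19.1 ± 20.8 CPM, with ranges that overlap, followed by NK-cell-like (16.2), monocyte-like (12.9) and macrophage-like nuclei (12.1). Adipocyte-like, B-cell-like and endothelial-like nuclei were lowest, at 1.63, 1.51 and 1.01 CPM. An epithelial-like cluster of 350 nuclei reached 289 CPM, and an unnamed cluster of 311 nuclei, led by genes of dividing cells such as Top2a, Mki67 and Kif11, reached 114 CPM, over pooled libraries. That unnamed cluster gave 120, 88.8 and 120 CPM in controls 1, 2 and 3 and 89.8, 143 and 155 CPM in the knockouts, though knockout 1 had only 10 nuclei there. Within the macrophage-like class the 3 larger clusters had 22.2, 9.37 and 6.33 CPM over pooled libraries.

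Gpsm3 (ENSMUSG00000034786; chromosome 17, 34589806 to 34591754, plus strand) was highest in lymphoid and some myeloid classes. T-cell-like nuclei had 53.0 ± 12.1 CPM, NK-cell-like 44.8 ± 16.5, monocyte-like 38.3 ± 21.6, B-cell-like 35.0 ± 8.22 and dendritic-like 31.8 ± 18.1 CPM, and the ranges of neighbours in this order overlap. Macrophage-like nuclei had 18.1 ± 2.50 CPM, and mural-like nuclei 9.80 ± 6.56 CPM, a range of 0 to 19.4 CPM that overlaps those of macrophage-like, dendritic-like and monocyte-like nuclei. ASPC-like nuclei (7.53 ± 1.48 CPM) stood above endothelial-like nuclei (4.33 ± 0.531) and these above adipocyte-like nuclei (1.06 ± 0.347), in 6 of 6 libraries and without overlap at either step. The end of the gene overlaps the start of Pbx2 on the same strand, and how the counting treated reads of overlapping genes is not given in the sources used here, so its level is uncertain to that degree. On the other strand, the ends of Gpsm1 and Gpsm2 overlap Dnlz and Clcc1, and whether the counting used strand is not stated there either.

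**Figure D1:**
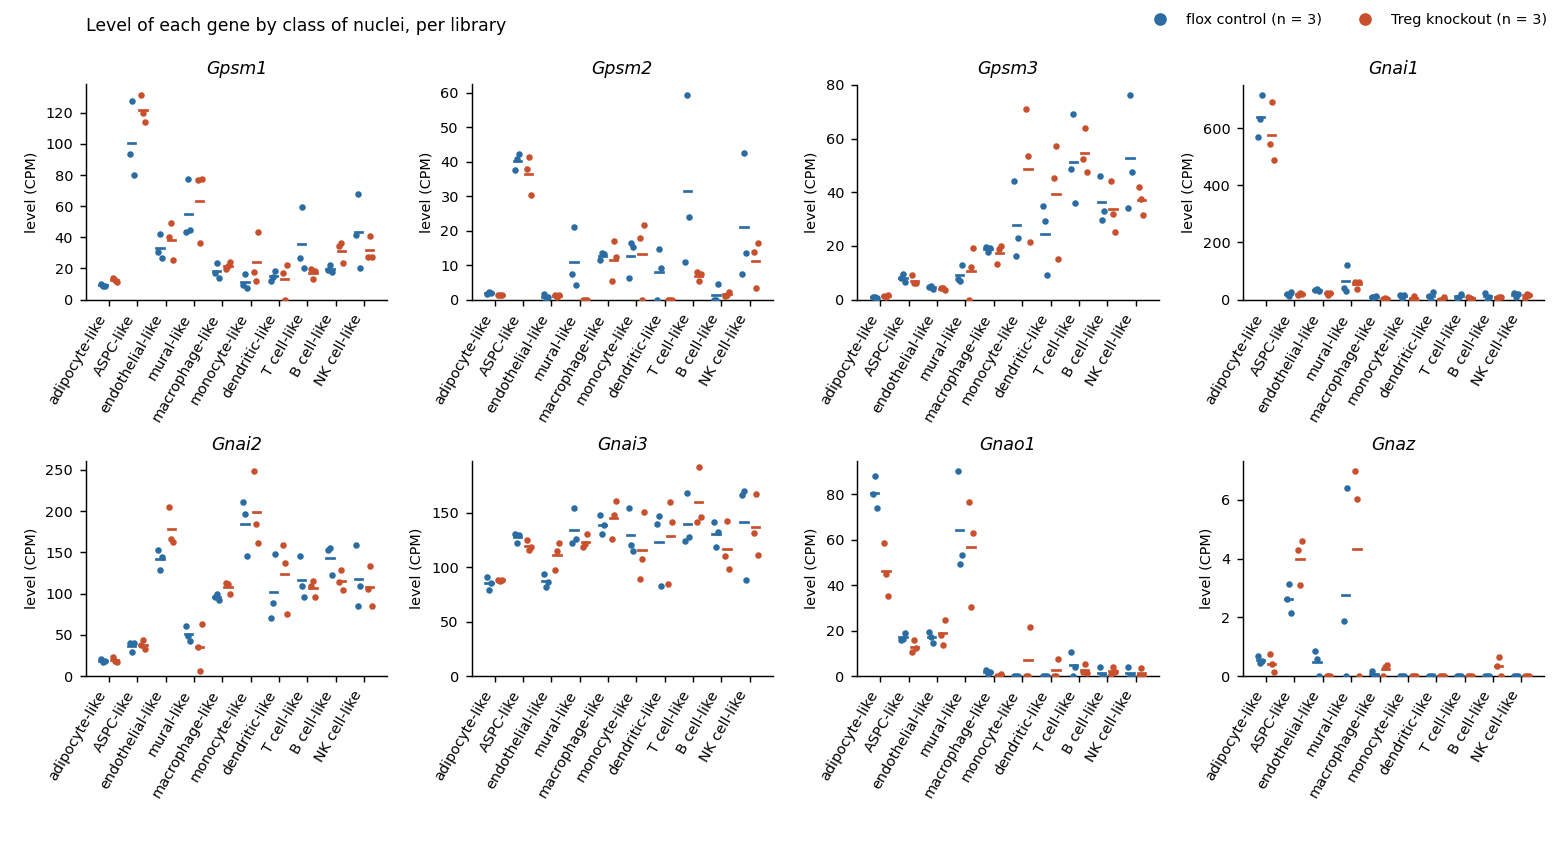
Level of each of the 8 genes (y axis, CPM, linear and scaled per gene) in the 10 compared classes (x axis). Points are libraries, bars the mean of 3, blue for flox control and red for Treg knockout; Gnai1 stands out in adipocyte-like nuclei (608 CPM), Gpsm1 in ASPC-like nuclei (111 CPM), Gpsm3 in lymphoid and myeloid classes.

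Gnai1 (ENSMUSG00000057614; chromosome 5, 18265135 to 18360355, minus strand), an inhibitory alpha subunit, was concentrated in adipocytes. Adipocyte-like nuclei had 608 ± 88.6 CPM (490 to 717), which was 10.3-fold above the next class, mural-like nuclei (58.9 ± 33.6 CPM), in 6 of 6 libraries. Endothelial-like (27.6), ASPC-like (19.8) and NK-cell-like nuclei (15.8 CPM) followed, and the other 5 classes had 6.66 to 9.75 CPM. Adipocyte-like nuclei gave 94.8 ± 5.80% of all Gnai1 UMIs in controls and 97.0 ± 1.36% in knockouts, while holding 58.6 and 47.7% of all UMIs. At least 1 Gnai1 UMI was found in 84.3% of adipocyte-like and 1.33% of T-cell-like nuclei (mean of 6 libraries), at unequal depth. After thinning each nucleus to 1000 UMIs, which left out 1247 of 23286 shallower control and 2380 of 25761 knockout nuclei of the compared classes, the shares were 38.5 ± 5.35% and 0.758 ± 1.06%. The adipocyte-like cluster of lowest depth, cluster 15, had 371 CPM against 591 to 690 CPM in the other 3, over pooled libraries. It held 168, 212 and 348 control and 502, 1202 and 939 knockout nuclei, so this level came mostly from knockout nuclei.

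Gnai2 (ENSMUSG00000032562; chromosome 9, 107614125 to 107635367, minus strand) ran the other way. Monocyte-like (191 ± 36.6), endothelial-like (160 ± 26.1), B-cell-like (130 ± 20.7), dendritic-like (113 ± 39.5), NK-cell-like (113 ± 28.7), T-cell-like (112 ± 18.1) and macrophage-like nuclei (102 ± 8.25 CPM) formed an upper group in which neighbours overlap. Mural-like nuclei (42.6 ± 20.8 CPM) were 2.39-fold below macrophage-like nuclei with no overlap, ASPC-like nuclei had 37.3 ± 5.36 CPM, and adipocyte-like nuclei were lowest at 19.0 ± 2.38 CPM, again with no overlap.

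Gnai3 (ENSMUSG00000000001; chromosome 3, 108107280 to 108146146, minus strand) varied least between classes. It ran from 150 ± 25.9 CPM in T-cell-like nuclei over 142 ± 12.7 in macrophage-like nuclei to 99.5 ± 15.8 in endothelial-like and 86.5 ± 4.14 CPM in adipocyte-like nuclei. Every pair of neighbours in the order overlapped, though endothelial-like nuclei were above adipocyte-like nuclei in 6 of 6 libraries.

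Gnao1 (ENSMUSG00000031748; chromosome 8, 93809966 to 93969388, plus strand), which codes for the alpha subunit Go, best known from neurons, had 63.4 ± 20.8 CPM in adipocyte-like and 60.4 ± 21.2 CPM in mural-like nuclei, which did not differ beyond their spread. Mural-like nuclei were 3.38-fold above endothelial-like nuclei (17.9 ± 3.90 CPM) without overlap, and ASPC-like nuclei had 15.0 ± 2.97 CPM. The 6 leukocyte classes had 0.995 to 3.82 CPM. Within classes the level was uneven: 1 endothelial-like cluster of 336 nuclei had 68.5 CPM against 10.2 and 11.5 CPM in the other 2, and the ASPC-like clusters had 4.37, 22.6 and 46.2 CPM, over pooled libraries.

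Gnaz (ENSMUSG00000040009; chromosome 10, 74967177 to 75016907, plus strand), an inhibitory alpha subunit that resists pertussis toxin, was near the limit of detection, with 238 UMIs in all kept nuclei. ASPC-like nuclei held 119 of them (3.31 ± 0.945 CPM), 6.84-fold above adipocyte-like nuclei (0.484 ± 0.225 CPM), in 6 of 6 libraries. Mural-like nuclei had 3.55 ± 3.29 CPM from 6 UMIs. Among the ASPC-like clusters the largest had 5.99 CPM and the others 0.333 and 1.10 CPM, from 5 and 3 UMIs. No UMI was seen in 1750 T-cell-like, 1468 NK-cell-like, 532 monocyte-like and 236 dendritic-like nuclei, which allows a share of nuclei with a Gnaz UMI of up to 0.171, 0.204, 0.564 and 1.27%. That limit is on detection at this depth, not on how many nuclei express the gene.

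**Figure D2:**
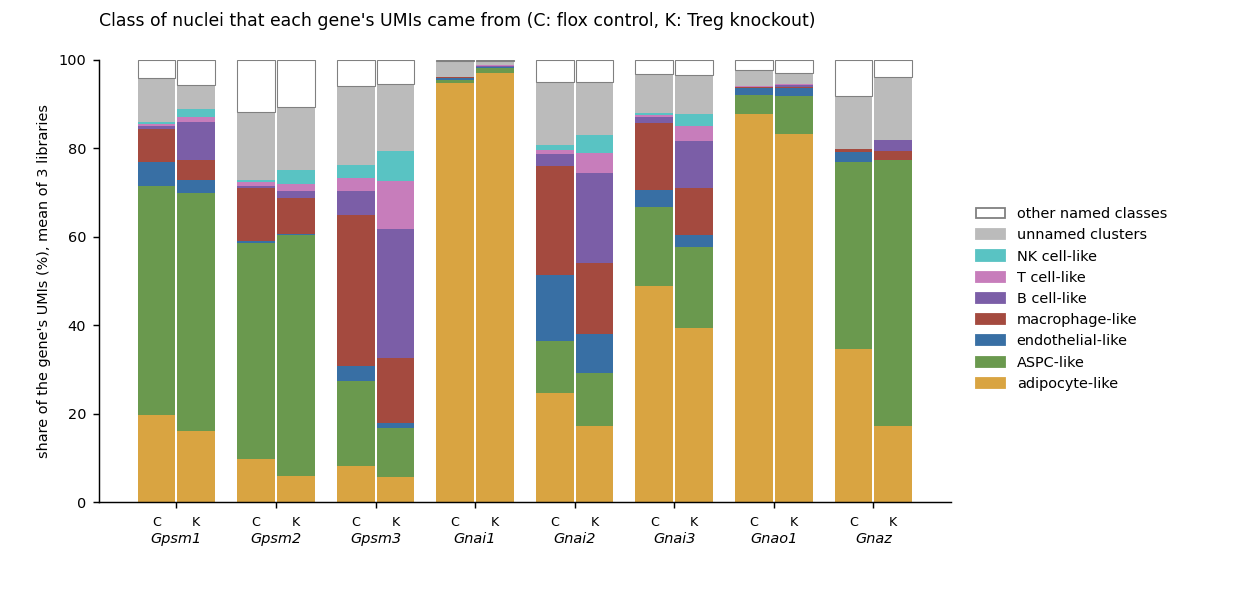
Share of each gene's UMIs (y axis, %, mean of 3 libraries) by the class of nuclei they came from, for flox control (C) and Treg knockout (K). Adipocyte-like nuclei gave 94.8 and 97.0% of Gnai1 UMIs, ASPC-like nuclei 51.6 and 53.8% of Gpsm1 UMIs, and B-cell-like nuclei 5.39 and 29.3% of Gpsm3 UMIs.

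Over the 10 classes some of the 8 profiles ran together. As a description, Pearson's r of the mean log2(CPM + 1) was 0.87 between Gnai1 and Gnao1, 0.80 between Gpsm3 and Gnai3, 0.72 between Gpsm3 and Gnai2, and -0.88 between Gpsm3 and Gnao1. Gpsm1 went with Gnaz (0.77), both being highest in ASPC-like nuclei or close to it. Each point is 1 class, and all classes share the same 6 libraries. Among 13646 genes that reached 10 CPM in some class, those most like Gpsm1 were Antxr1 (0.95), Ackr3 (0.95) and Rian (0.94), and those most like Gnao1 were Nhs (0.99), Rhod (0.99) and Msrb3 (0.98). Chpt1 (0.98) and 2310014F06Rik (0.97) were among those most like Gnai1, and Gnai2 was most like Slfn3 (0.97), Arpc3 (0.97) and Srgn (0.96). For Gpsm3 these were Yipf1, Cotl1 and Arhgap15 (each 0.98), for Gnai3 Ankrd52 (0.95), Pias2 (0.93) and Chd3 (0.90), for Gnaz Gm6878, Ypel4 and Fst (each 0.99), and for Gpsm2, the least well matched, they included Gm17382 (0.86) and B4galt1 (0.84).

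Between the groups, only Gnao1 passed the test, in adipocyte-like nuclei, where it fell in knockouts. It stood at 80.1, 88.1 and 74.0 CPM in controls 1, 2 and 3 and at 58.3, 44.9 and 35.1 CPM in knockouts 1, 2 and 3. All 3 knockout libraries lay below all 3 controls. The means were 80.7 ± 7.04 and 46.1 ± 11.7 CPM (SD, n = 3), a log2 fold change of -0.88 (SE 0.167; adjusted p = 0.0441, edgeR quasi-likelihood test with Benjamini-Hochberg adjustment). In this class 391 of 15734 genes passed (2.49%), 221 of them lower (1.40%), and groups without overlap were found for 30.8% of genes. With library totals in place of TMM factors the split of passing genes was 308 higher and 142 lower, against 170 higher and 221 lower.

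The call for Gnao1 did not hold under each alternative, though the direction did. Leaving out control 1, 2 or 3 gave adjusted p = 0.132, 0.103 and 0.0718, and leaving out knockout 2 or 3 gave 0.127 and 0.0928 (edgeR), with log2 fold changes of -0.94 to -0.73. Without knockout 1 it was -1.08 (adjusted p = 0.0130, edgeR, where 3.10% of genes passed). Among nuclei of 3000 to 8000 UMIs, a range that sets depth closer, it was -1.29 (adjusted p = 0.00956, edgeR, where 2.40% passed). That range also changes the mix of adipocyte-like clusters. Their median depth was 13979 and 10058 UMIs in clusters 11 and 12, and 6318 and 4613 UMIs in clusters 13 and 15. Control adipocyte-like nuclei had a median depth of 10154, 9406 and 9238.5 UMIs, and those of knockouts 8651, 5244 and 5951 UMIs. The share of adipocyte-like nuclei with a Gnao1 UMI was 41.1% in controls and 20.4% in knockouts. After thinning to 1000 UMIs it was 6.39 and 3.26% (exact two-sided permutation p = 0.1 for each). In B-cell-like nuclei the mean share over all 6 libraries, both groups together, was 0.249% before and 0.138% after thinning.

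Taken cluster by cluster, Gnao1 passed in none of the 4 adipocyte-like clusters. Its groups did not overlap in clusters 12, 13 and 15. The share of all genes without overlap, 30.8% in the whole class, was not counted per cluster, so these cases have no background of their own. In cluster 13 the controls had 60.5, 83.6 and 70.3 CPM and the knockouts 41.1, 21.6 and 24.4 CPM (log2 fold change -1.37, adjusted p = 0.0514, edgeR, where 0.175% of genes passed). Cluster 12 had 77.2, 81.0 and 70.8 against 48.5, 34.2 and 24.9 CPM (-1.10, adjusted p = 0.0801; 0.0400% passed). Cluster 15 had 76.9, 93.2 and 59.9 against 56.5, 25.6 and 26.3 CPM (-1.12, adjusted p = 0.255; 0.0175% passed). In cluster 11, the deepest, the groups overlapped, with 87.2, 92.1 and 80.7 against 71.8, 85.8 and 58.5 CPM (-0.32, adjusted p = 0.398; 0.0217% passed). Cluster 15 held 168, 212 and 348 control and 502, 1202 and 939 knockout nuclei. Its pooled level, the lowest of the 4 at 43.6 CPM against 83.6 CPM in cluster 11, was therefore drawn mostly from knockout nuclei. By group, its values overlapped those of clusters 12 and 13. The 10 adipocyte markers summed to 11218 to 12319 CPM in control and 14239 to 14625 CPM in knockout adipocyte-like nuclei, and B-cell markers to 7.27 to 24.4 and 17.0 to 86.6 CPM. The part of these shifts in the Gnao1 difference was not tested. The antisense gene 4930488L21Rik, which overlaps the start of Gnao1, stood at 11.3 to 15.7 CPM in controls and 7.94 to 11.1 CPM in knockouts.

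In the 3 other classes where Gnao1 could be tested it did not pass. ASPC-like nuclei had 17.0 ± 1.61 and 12.9 ± 2.66 CPM (-0.38, adjusted p = 0.433, edgeR; 0.451% of genes passed). Endothelial-like nuclei had 17.1 ± 2.45 and 18.7 ± 5.47 CPM (0.08, adjusted p = 0.977, edgeR; 0.105% passed), and mural-like nuclei 64.2 ± 22.6 and 56.7 ± 23.9 CPM (-0.20, adjusted p = 0.999, edgeR; 0 of 5692 genes passed). The change in adipocyte-like minus that in endothelial-like nuclei was -0.92 on the log2(CPM + 1) scale (exact two-sided permutation p = 0.1 over libraries, the smallest p this design allows). Against ASPC-like nuclei it was -0.44 (p = 0.3, exact permutation) and against mural-like nuclei -0.60 (p = 0.3, exact permutation).

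**Figure D3:**
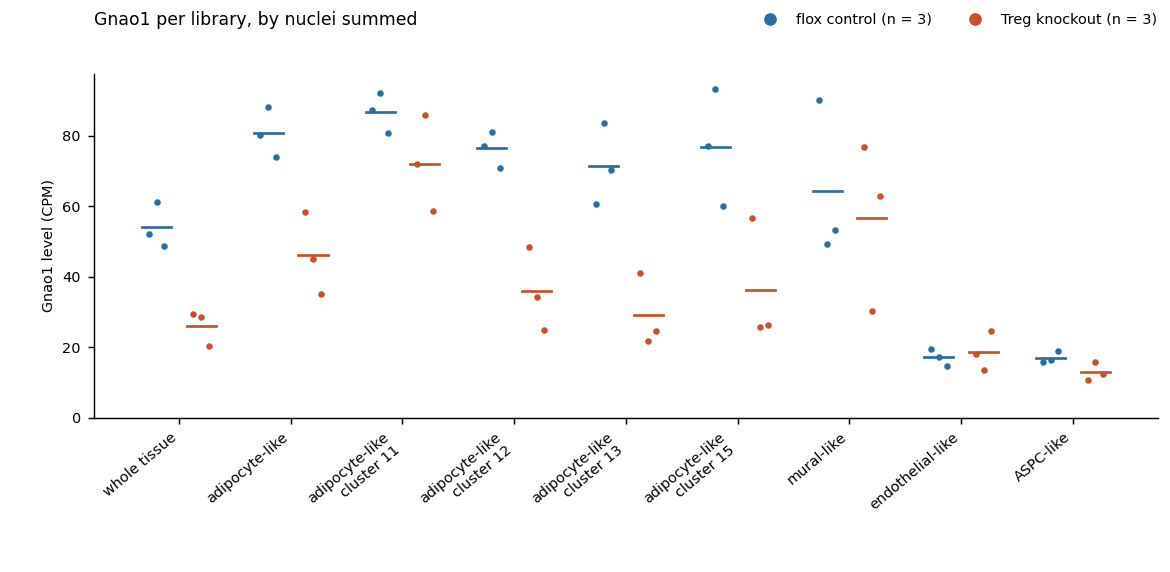
Gnao1 level (y axis, CPM, from 0) per library in whole tissue, in all adipocyte-like nuclei and their 4 clusters, and in 3 other classes. Points are libraries, bars the mean of 3; blue is flox control and red Treg knockout. The groups do not overlap in adipocyte-like nuclei (74.0 to 88.1 against 35.1 to 58.3 CPM) and do overlap in cluster 11.

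In whole tissue, where all kept nuclei of a library were summed, none of the 8 genes passed, in a fit where 8 of 19310 genes did (0.0414%), 7 of them lower (0.0363%). There, a smaller number of cells of a type and less RNA per cell cannot be told apart. Gnao1 was at 52.2, 61.1 and 48.6 CPM in controls and 29.4, 28.4 and 20.4 CPM in knockouts, without overlap (log2 fold change -1.14, SE 0.166, adjusted p = 0.0599, edgeR), and 87.7% of its control UMIs came from adipocyte-like nuclei. With the replicate number as a block, Gnao1 passed there (adjusted p = 0.0300, edgeR), in a fit where 5.89% of genes did (1138 of 19310). Gpsm1 was at 27.1, 30.9 and 24.0 CPM in controls and 38.3, 38.4 and 33.8 CPM in knockouts, again without overlap (0.34, SE 0.117, adjusted p = 0.122, edgeR). Gpsm3 was at 6.40, 5.27 and 6.86 CPM in controls and 15.6, 7.32 and 11.0 CPM in knockouts (0.78, SE 0.279, adjusted p = 0.131, edgeR). Groups without overlap, which these 3 genes showed, were found for 36.2% of genes. B-cell-like nuclei gave 5.39 ± 4.76% of Gpsm3 UMIs in controls and 29.3 ± 16.5% in knockouts, and with adipocyte-like, ASPC-like, endothelial-like, mural-like and macrophage-like nuclei alone the log2 fold change was -0.082 (adjusted p = 0.802, edgeR). Within B-cell-like nuclei Gpsm3 was at 36.2 ± 8.57 and 33.7 ± 9.53 CPM. Gnai1 overlapped, at 337, 415 and 431 against 244, 378 and 237 CPM (-0.55, adjusted p = 0.137, edgeR). Without knockout 2, Gnao1, Gpsm3 and Gnai1 passed, with adjusted p = 0.0166, 0.0235 and 0.0136 (edgeR), in a fit where 17.3% of genes did (3440 of 19829).

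Gpsm1 passed in none of the other classes. In adipocyte-like nuclei it stood at 10.1, 8.86 and 8.75 CPM in controls and 13.7, 12.3 and 11.5 CPM in knockouts (log2 fold change 0.36, SE 0.120, adjusted p = 0.129, edgeR), and at 0.03 (adjusted p = 0.964) among nuclei of 3000 to 8000 UMIs. B-cell-like nuclei had 19.1, 22.2 and 17.6 CPM in controls, from 24 UMIs, and 34.1, 36.4 and 23.7 CPM in knockouts, from 322 UMIs (0.75, adjusted p = 0.444, edgeR). Groups without overlap were found for 15.4% of genes in that class, where 0.204% passed. ASPC-like nuclei, the main source, had 93.7, 128 and 79.8 CPM in controls and 132, 120 and 114 CPM in knockouts, which overlap (0.26, adjusted p = 0.603, edgeR).

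The family's other members showed differences without a call. Gpsm2 in adipocyte-like nuclei was at 1.64, 2.19 and 1.81 CPM in controls and 1.30, 1.47 and 1.34 CPM in knockouts (-0.52, adjusted p = 0.238, edgeR). In T-cell-like nuclei Gpsm2 was at 10.8, 59.4 and 24.0 CPM from 14 UMIs in controls and 7.95, 5.34 and 7.31 CPM from 18 UMIs in knockouts. The groups did not overlap (exact two-sided permutation p = 0.1). Among genes tested in that class 19.4% showed no overlap, but Gpsm2 was too low there to be tested and lies outside that set. In mural-like nuclei 15 UMIs were counted in controls and 0 in knockouts, whose summed depth was lower. Gpsm3 in T-cell-like nuclei overlapped, at 48.5, 69.3 and 36.0 against 52.5, 64.0 and 47.5 CPM (0.18, adjusted p = 0.885, edgeR; 4.23% of genes passed).

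Among the alpha subunits, Gnai1 in adipocyte-like nuclei overlapped between the groups, at 568, 631 and 717 CPM in controls and 545, 694 and 490 CPM in knockouts (-0.22, SE 0.141, adjusted p = 0.382, edgeR). In macrophage-like nuclei, where its level was low, it was at 7.80, 7.47 and 14.1 CPM in controls and 1.96, 5.31 and 3.34 CPM in knockouts (-1.34, SE 0.389, adjusted p = 0.165, edgeR). The groups did not overlap, as for 17.8% of genes in that class, where 0.0664% passed. Adipocyte markers in these macrophage-like nuclei summed to 648 to 868 CPM in controls and 468 to 617 CPM in knockouts, with all 10 detected, and their part in the Gnai1 values was not tested. Endothelial-like nuclei had 3 of 5 tested genes without overlap, beside 13.9% of all genes there: Gnai1 at 33.8, 37.0 and 30.1 against 23.8, 17.8 and 23.2 CPM (-0.68, adjusted p = 0.346), Gnai2 at 152, 128 and 145 against 205, 166 and 163 CPM (0.30, adjusted p = 0.532), and Gnai3 at 94.0, 82.0 and 86.7 against 97.8, 114 and 122 CPM (0.33, adjusted p = 0.511, all edgeR). Gnai2 in macrophage-like nuclei was at 96.0, 98.9 and 92.6 against 112, 112 and 99.1 CPM (0.17, adjusted p = 0.484, edgeR). Gnai3 in adipocyte-like nuclei was at 85.1 ± 6.02 and 88.0 ± 0.387 CPM (-0.02, adjusted p = 0.887, edgeR). Gnaz was tested in whole tissue, adipocyte-like and ASPC-like nuclei, with 2.64 ± 0.499 and 3.99 ± 0.779 CPM in the last (0.56, adjusted p = 0.537, edgeR).

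**Figure D4:**
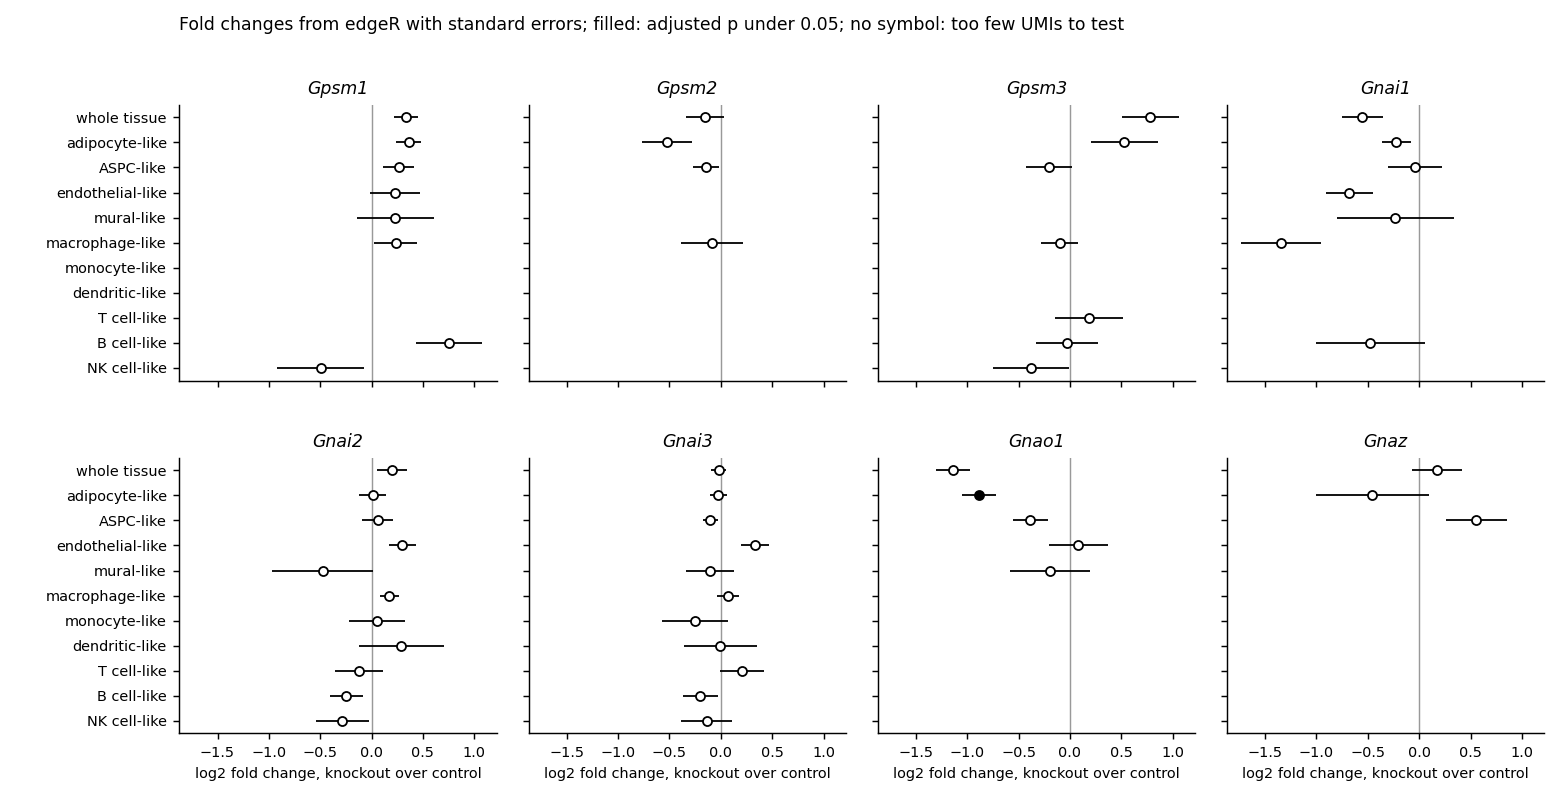
Log2 fold change of each gene, knockout over control (x axis), in whole tissue and the 10 classes (y axis). Points are edgeR estimates and bars their standard errors; the filled point, Gnao1 in adipocyte-like nuclei (-0.88), is the 1 with an adjusted p under 0.05, and rows with no symbol had too few UMIs to be tested.

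The pathway around the 8 genes was read from 9 lists with 94 genes: other alpha subunits, beta and gamma subunits, other GoLoco proteins, Ric8 exchange factors (chaperones and activators of alpha subunits), RGS proteins (which speed GTP hydrolysis), polarity and spindle partners, adenylyl cyclases and Gi-coupled receptors. In whole tissue 85 of them could be tested, 0 passed with edgeR (31 at an unadjusted p under 0.05), and their median log2 fold change was -0.04 beside 0.01 over all genes. In adipocyte-like nuclei 65 could be tested and 0 passed (13 at an unadjusted p under 0.05), with a median of -0.09 beside 0.01. Receptors known to restrain lipolysis were measured there, among them Adora1 at 71.0 ± 3.82 and 69.0 ± 14.1 CPM (adjusted p = 0.642, edgeR), Ptger3 at 378 ± 96.3 and 258 ± 59.7 CPM (0.150) and Hcar2 at 3.05 ± 0.247 and 5.63 ± 0.965 CPM (0.0583). None of the list genes passed in ASPC-like, endothelial-like, mural-like, macrophage-like, monocyte-like, dendritic-like or B-cell-like nuclei (edgeR), with 13, 8, 2, 14, 1, 1 and 2 at an unadjusted p under 0.05. Over all genes 0.106% passed in dendritic-like and 0 of 3232 in monocyte-like nuclei.

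List genes passed in 2 lymphoid classes, whose makeup also differed between the groups. In T-cell-like nuclei 3 of 24 fell, where 4.23% of genes passed and 2.77% fell. Pard3, a polarity scaffold, went from 423 to 107 CPM (log2 fold change -2.12, adjusted p = 1.94e-05, edgeR), Ccr2, a chemokine receptor, from 497 to 178 CPM (-1.54, adjusted p = 3.22e-04) and Gng2, a gamma subunit, from 417 to 277 CPM (-0.58, adjusted p = 0.0300). The group 2 innate lymphoid markers given above, of which 2 of 6 stood out in this class, summed lower in the same knockout libraries. At Leiden resolution 2 a T-cell-like cluster led by Cd163l1 and Il23r held 43, 18 and 39 of 191, 101 and 163 control T-cell-like nuclei. In knockouts it held 80, 39 and 56 of 1294, 383 and 778. The part of these shifts in the 3 changes was not tested. In NK-cell-like nuclei, the mixed class named above, which also carried all 10 T-cell markers, 3 of 24 rose, where 7.97% of genes passed and 3.11% rose: Rgs10 (2.43, adjusted p = 0.00232), Ccr7, a homing receptor of lymph nodes (1.83, adjusted p = 0.0139), and S1pr1, the receptor for lymphocyte exit (0.95, adjusted p = 0.0142, all edgeR). NK-cell markers summed there to 3763 to 8617 CPM in controls and 1296 to 3093 CPM in knockouts, and T-cell markers to 7243 to 7627 and 10778 to 12736 CPM. Their part in these changes was not tested.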

How the data were processed

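Nuclei of subcutaneous fat from 3 flox control and 3 Treg knockout mice were sorted and made into 3′ droplet libraries, per the labels' protocols. The deposited matrices hold UMI counts per gene and barcode, made with Cell Ranger 7.1 per the submitters' processing notes, which also name mm10 and GRCh38; each of the 32285 genes is from mouse. The sources used here do not say how reads in introns were treated. Libraries held 38857282 to 55342903 UMIs in all barcodes. Nuclei were kept from 500 detected genes upward and up to 5% mitochondrial UMIs, and the highest Scrublet scores were removed at 0.8% per 1000 barcodes. Library pairs shared 17 to 35 barcodes.

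In scanpy 1.11.5, 3000 variable genes (without the 8 genes and 94 pathway genes), 40 principal components and 20 neighbours gave 35 Leiden clusters. A cluster took the name of a list when at least 3 markers and 50% of the list stood 2-fold above the other clusters, and 26 were named. Scoring each nucleus on its own matched the cluster's name for 83.8% of those with a name.

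Counts were summed per class and library and tested with edgeR 4.0.16 (R 4.3.3, robust quasi-likelihood, TMM factors, filterByExpr, Benjamini-Hochberg over all genes of the class, threshold 0.05). The script was tested on simulated counts. Single values were compared by exact permutation over libraries, and intervals are exact Clopper-Pearson. The limits given for Gnaz at a count of 0 are 3 over the number of nuclei. DESeq2 1.42.0, other scalings, filters, doublet handling, class definitions and left-out libraries were alternatives. Positions are from GENCODE on mm10. The 8 genes and all lists were chosen with earlier results of these data known. Genes named beside the 8 are list genes that passed, up to 5 per class, and the 3 genes most like each in profile, of which some are not reported here; Adora1, Ptger3, Hcar2 and genes overlapping the 8 were added after their values were seen.

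Replicate numbers recur in both groups. Deviations of same-numbered libraries correlated at 0.41, 0.14 and 0.12 in whole tissue and at -0.01, 0.20 and 0.05 in adipocyte-like nuclei. Pairs of unlike number ran from -0.37 to 0.25 in whole tissue, the highest being control 2 with knockout 3. The replicate number is thus not clearly set apart as a pairing. The block is given beside whole-tissue results where it changed a call. That libraries are separate mice rests on the protocol's 3 mice per genotype.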

Additional observations from a re-analysis of the deposited data

Results flagged for a closer look

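Gpsm1 values went in different directions between classes, though the gene passed in none and was too low to fit in T-cell-like nuclei. Knockout minus control, it was -18.3 CPM in T-cell-like nuclei, 3.24 CPM in adipocyte-like nuclei and 11.7 CPM in B-cell-like nuclei, and in each of these classes the 3 knockout libraries lay wholly to 1 side of the 3 controls. Groups without overlap were found for 19.4, 30.8 and 15.4% of all genes tested in these classes, and in T-cell-like nuclei the Gpsm1 values of the groups overlapped under 4 alternative definitions of the nuclei. The difference between the classes was not tested. The T-cell-like value rests on 16 control and 45 knockout UMIs, the B-cell-like value on 24 and 322, and the adipocyte-like value on 751 and 605.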

How the results depend on the processing

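Among the 8 genes, the number that passed was the same under all alternatives run for ASPC-like, endothelial-like, T-cell-like and B-cell-like nuclei (15 of 15 each). In whole tissue it was 0, where 8 of 19310 genes passed. With DESeq2 it was 2 (Gnao1 and Gpsm3), where 3281 of 20095 genes passed. With every gene of at least 1 UMI tested it was 1 (Gnao1), where 269 of 27532 passed. With the replicate number as a block it was 1 (Gnao1), where 1138 of 19310 passed. Without each library in turn it was 0 to 3, with 3440 of 19829 genes passing where it was 3. In adipocyte-like nuclei it was 1 (Gnao1), but 0 with library totals alone, with no removal of doublets, at Leiden resolution 2, with classes by marker score and with the unnamed cluster nearest to adipocytes added (chosen after seeing the data), and 0 to 1 without each library in turn. In macrophage-like nuclei it was 0, but 1 (Gnai1) with every gene of at least 1 UMI, a fit in which 771 of 21890 genes passed against 8 of 12051. Over 17 alternatives Gnao1 in adipocyte-like nuclei ran from -1.29 to -0.73, with adjusted p from 4.37e-05 (DESeq2) to 0.157, and 10 of the 17 missed the threshold. Run in whole tissue and in adipocyte-like, ASPC-like, endothelial-like, macrophage-like, T-cell-like and B-cell-like nuclei, the replicate block changed no other call among the 8 genes. The difference of Gpsm1 in T-cell-like nuclei ran from -26.0 to -6.31 CPM without each library in turn and from -24.8 to -9.92 CPM under the other 4 alternatives, in each of which the groups overlapped. Gpsm3 in whole tissue reversed to -0.082 with 5 adipose classes only, a fit that leaves out every leukocyte class but the macrophage-like one. Over all genes, 0 to 3440 passed in whole tissue without each library in turn. In adipocyte-like nuclei 391 of 15734 passed, against 1293 of 16283 with DESeq2, 313 of 15734 with the replicate block and 706 of 24806 without the filter. Without each library in turn 0 to 507 passed there, the most, 507 of 16351, without knockout 1. Causes were not tested. Depth limits Gnaz everywhere, and Gpsm1 and Gpsm2 in lymphoid classes.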

Other observations

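Clusters outside the compared classes held some of the highest levels of the Gpsm genes. Gpsm2 in the epithelial-like cluster of 350 nuclei stood at 410 CPM in control 1, 293 CPM in control 3, 137 CPM in knockout 1 and 263 CPM in knockout 2; control 2 had no nuclei there. Gpsm1 in the same cluster was at 158 CPM over pooled libraries, above the 107 to 118 CPM of the ASPC-like clusters, while another epithelial-like cluster of 428 nuclei had 15.4 CPM of Gpsm1 and 79.8 CPM of Gnao1. Lymphatic endothelial-like nuclei, 217 in all, had 58.4 CPM of Gpsm1 and 12.6 CPM of Gpsm2, against 22.0 to 38.6 CPM and 0.536 to 2.04 CPM in the 3 endothelial-like clusters. The unnamed cluster nearest to adipocytes, with 3243 nuclei, had 325 CPM of Gnai1, 37.8 CPM of Gnao1, 84.1 CPM of Gnai2 and 39.8 CPM of Gpsm1. Its Gnai1 level lay below all 4 adipocyte-like clusters (371 to 690 CPM) and its Gnai2 level above them (17.0 to 23.5 CPM). Control 3 alone held 2897 of its nuclei. Their median depth was 1181 UMIs, against 4613 to 13979 UMIs in the adipocyte-like clusters. These are pooled values with no test.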
